A study of Rattus norvegicus with 11 samples.

Results

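The genes described here are the 10 mitochondrially encoded subunit genes of respiratory complex I (ND1, ND2, ND3, ND4, ND4L, ND5 and ND6) and of cytochrome c oxidase (COX1, COX2 and COX3). Their rows were found by symbol, and each symbol matched 1 of the 42172 genes counted in every library. The set itself was chosen with earlier results of these data known. All 10 were among the 17294 genes with enough reads to test. RNA with poly(A) tails was sequenced from primary hippocampal neurons of Sprague Dawley rats at day 7 in vitro. The cultures expressed a protein from outside: linker histone H1.4 in its wild-type form (WT H1.4, n = 4, numbered 1 to 4), a mutant H1.4 whose C-terminus ends in a frameshift tail (H1.4 CFT, n = 4, numbered 1 to 4) or, as the control, green fluorescent protein (GFP, n = 3, numbered 2 to 4). The labels do not give the vector, its promoter, the species of the H1.4 sequence or the share of cells that expressed it. The libraries are called biological replicates without a statement that each came from its own culture or litter, so p-values measure the spread between these libraries.

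Complex I takes electrons from NADH and passes them to ubiquinone, and cytochrome c oxidase, or complex IV, hands electrons to oxygen at the end of the respiratory chain. The catalytic and proton-pumping core of each complex is encoded partly in the mitochondrial genome, while most of the other subunits, the assembly factors and the whole transcription machinery of the organelle come from nuclear genes. Mitochondrial genes are transcribed as long precursors that are then cut into single messages, so their levels depend on processing and decay as well as on transcription. Neurons rely heavily on this pathway to power ion pumps and synapses.

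The libraries held between 12070941 and 18846492 counts in genes. Reads that aligned to more than 1 place were set apart by the counter (5.59% to 7.04% of reads), which would include reads shared with nuclear copies of mitochondrial sequence. Neuronal markers were present in every library, from 9.54 CPM for Gad2 to 1678 CPM for Tubb3, each at its lowest or highest library. H1f4, the rat gene of H1.4, was too low to test, with 1 to 5 counts per library in WT H1.4, 5 to 8 in H1.4 CFT and 0 to 2 in GFP. It does not check the labels, since the sequence of the expressed H1.4 is not given. In WT H1.4 and H1.4 CFT, libraries 1 and 2 were more alike than either was to 3 or 4, and so were libraries 3 and 4 (variance of 1.78 to 2.26 times the counting variance within such a number pair and 3.79 to 9.35 times between the pairs), although no label names a batch. Levels are given as CPM, that is counts scaled to library size, here with TMM factors and without division by gene length. They are therefore compared between groups and not between genes.

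The 10 genes together took a larger share of gene counts in H1.4 CFT neurons than in either control. Their share of gene counts was 2.58%, 2.54%, 2.71% and 2.75% in H1.4 CFT libraries 1 to 4. It was 2.31%, 2.41%, 2.15% and 2.25% in WT H1.4 libraries 1 to 4, and 2.28%, 2.44% and 2.41% in GFP libraries 2 to 4. No H1.4 CFT library overlapped the others, all 4 being higher. The means were 2.65 ± 0.101% (SD, n = 4) in H1.4 CFT, 2.28 ± 0.109% (n = 4) in WT H1.4 and 2.38 ± 0.0832% (n = 3) in GFP. In exact two-sided permutation tests p was 0.0286 for H1.4 CFT against each of the others, the smallest p either design allows, and 0.0858 after adjustment over 6 library tests. WT H1.4 and GFP overlapped (exact permutation p = 0.2, adjusted p = 0.24). The share was not TMM-scaled, and TMM factors were 1.02 to 1.06 in H1.4 CFT and 0.970 to 0.988 in all other libraries. Higher factors lower the scaled levels, so the groups lay closer on the TMM scale. There the ND sum was 8667 to 8699 CPM in H1.4 CFT, 6949 to 8260 CPM in WT H1.4 and 7626 to 7967 CPM in GFP. The COX sum overlapped, at 16338 to 17379, 15023 to 16440 and 15216 to 17029 CPM. A share of counts can rise with more of these transcripts or with less of the others, and in bulk RNA a change in the number of cells of a type and a change in RNA per cell cannot be told apart.

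**Figure D1:**
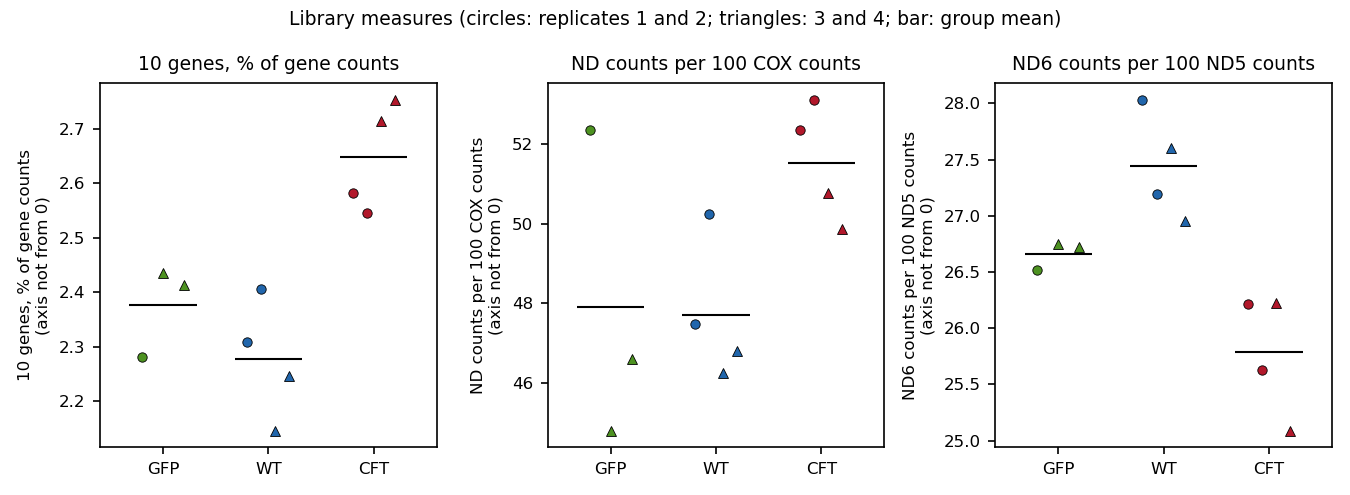
The 3 panels show, for each library, the share of gene counts on the 10 genes (%), the ND counts per 100 COX counts and the ND6 counts per 100 ND5 counts, with bars at group means, circles for replicates 1 and 2 and triangles for 3 and 4. The share is at least 2.54% in the H1.4 CFT libraries and at most 2.44% in all others, whereas the ND to COX measure overlaps between groups.

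Of the complex I genes, 4 of 7 rose in H1.4 CFT relative to WT H1.4 and 3 of 7 rose against GFP, and of the cytochrome c oxidase genes 1 of 3 rose against WT H1.4 and 0 against GFP (0 at an unadjusted p under 0.05, and 0 by DESeq2 and limma-voom). Counted over all 10, 5 rose, 0 fell and 5 did not pass in H1.4 CFT relative to WT H1.4, where 16.7% of all genes tested were called higher and 19.2% lower (edgeR's quasi-likelihood test, adjusted p under 0.05). Against GFP, 3 rose, 0 fell and 7 did not pass, beside 13.3% of all genes higher and 16.2% lower. The median log2 fold change of the 10 genes was 0.17 against WT H1.4 and 0.10 against GFP, while that of all genes tested was 0.018 and 0.011. These comparisons share the H1.4 CFT libraries and are not independent of each other. For 6 genes every H1.4 CFT library was above every WT H1.4 library, which held for 16.1% of all genes tested, and for 4 genes every one was above every GFP library, which held for 17% of all genes.

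ND2 changed most among the 10 genes on the log2 scale in both comparisons of H1.4 CFT. It encodes a membrane subunit of the proton-pumping arm of complex I. Its level was 1816, 1860.2, 1917 and 1923 CPM in H1.4 CFT 1 to 4, 1560.1, 1622, 1348 and 1357 CPM in WT H1.4 1 to 4, and 1522, 1471 and 1569 CPM in GFP 2 to 4. The lowest H1.4 CFT library was above the highest library of each other group, and within WT H1.4 the libraries 3 and 4 were lower than 1 and 2. ND2 was 1.28-fold higher than in WT H1.4 (log2 fold change 0.35, SE 0.053, edgeR adjusted p = 5.31e-05) and 1.24-fold higher than in GFP (0.31, SE 0.058, adjusted p = 0.000566).

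ND1, the subunit beside the site where ubiquinone is bound, rose by similar amounts against both controls. It stood at 1509.6, 1496, 1588 and 1538 CPM in H1.4 CFT 1 to 4, at 1327, 1367, 1246 and 1309 CPM in WT H1.4 1 to 4, and at 1284, 1321 and 1340.1 CPM in GFP 2 to 4. The H1.4 CFT values did not overlap those of WT H1.4 or GFP, and the WT H1.4 range took in the whole GFP range. The fold was 1.17 in both comparisons (log2 fold change 0.22, SE 0.040, edgeR adjusted p = 0.000216 against WT H1.4, and 0.22, SE 0.043, adjusted p = 0.000675 against GFP).

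ND4, another proton-pumping subunit, also rose in both comparisons. Its level was 2062, 2014, 2085 and 2103 CPM in H1.4 CFT, 1737, 1944, 1598 and 1699 CPM in WT H1.4 and 1864, 1810.2 and 1872 CPM in GFP, in order of library number. The H1.4 CFT libraries were above all others, WT 2 came closest to them, and the WT H1.4 range took in the GFP range. ND4 was 1.18-fold higher than in WT H1.4 (log2 fold change 0.24, SE 0.048, edgeR adjusted p = 0.000583) and 1.12-fold higher than in GFP (0.16, SE 0.052, adjusted p = 0.0254). The call against GFP was lost without GFP 2 (adjusted p = 0.0545), GFP 3 (0.109), GFP 4 (0.0626) or CFT 3 (0.0521) and in replicates 1 and 2 alone (0.0681), while ND1 and ND2 kept both calls, and ND4 its call against WT H1.4, under all 24 alternatives run for each.

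**Figure D2:**
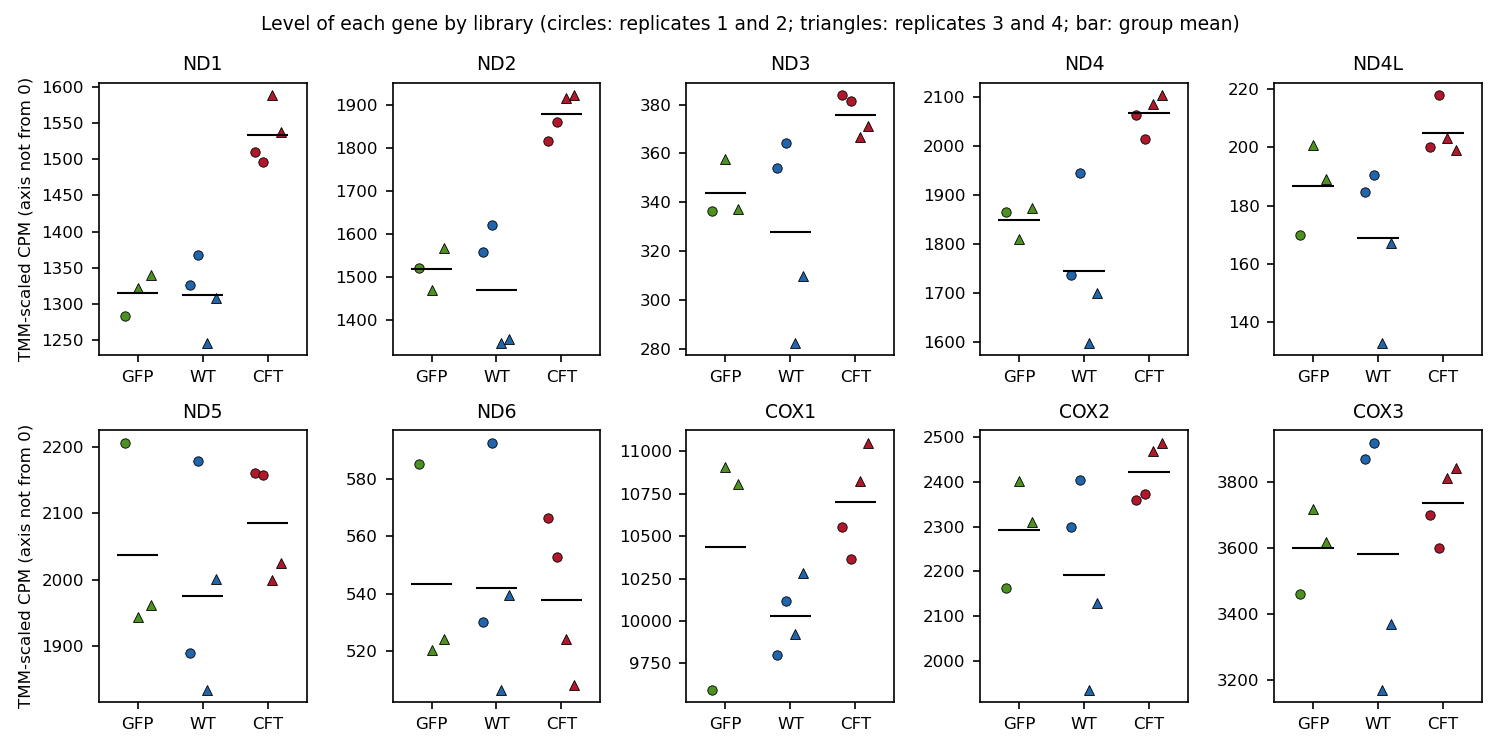
Level of each of the 10 genes in TMM-scaled CPM (vertical axes do not start at 0) for the 3 GFP, 4 WT H1.4 and 4 H1.4 CFT libraries, with bars at group means, circles for replicates 1 and 2 and triangles for 3 and 4. For ND1, ND2 and ND4 the H1.4 CFT libraries lie above all others, while ND5, ND6 and COX3 overlap between groups.

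ND3, a small subunit at the joint of the membrane and matrix arms, rose only against WT H1.4 by the test. Its level was 384, 381, 367 and 371 CPM in H1.4 CFT, 354, 364, 283 and 310.1 CPM in WT H1.4 and 336, 358 and 337 CPM in GFP. WT 3 and WT 4 were the lowest of all libraries, and WT 2 came close to CFT 3. The log2 fold change was 0.20 against WT H1.4 (SE 0.063, edgeR adjusted p = 0.0213) and 0.13 against GFP (SE 0.068, adjusted p = 0.172). Without WT 3 the first value was 0.13 (adjusted p = 0.0623), and without WT 4 it was 0.17 (adjusted p = 0.0702).

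ND4L, whose reading frame shares a message with ND4, did not pass either test. It had 200.1, 218, 203 and 199 CPM in H1.4 CFT, 185, 190.4, 133 and 167 CPM in WT H1.4 and 170.0, 201 and 189 CPM in GFP. The H1.4 CFT libraries were above all WT H1.4 libraries, and WT 3 was the lowest of the 11. Its log2 fold change was 0.28 against WT H1.4 (SE 0.10, edgeR adjusted p = 0.053) and 0.14 against GFP (SE 0.11, adjusted p = 0.397). Among other settings, the first comparison passed with DESeq2 (adjusted p = 0.00709), with limma-voom (0.0406), and without WT 1 (0.0431), WT 2 (0.023) or WT 3 (0.0247, at a log2 fold change of 0.18). ND4L counts were between 8.32 and 11.1 per 100 ND4 counts over the 11 libraries, and since the reading frames overlap, the counter could not assign shared reads to 1 of them.

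ND5 and ND6 did not pass in any comparison. ND5, the largest proton-pumping subunit, had 2161, 2158, 1999 and 2025 CPM in H1.4 CFT, 1890.5, 2179, 1834 and 2001 CPM in WT H1.4 and 2206, 1945 and 1962 CPM in GFP. Its log2 fold change was 0.08 against WT H1.4 (95% interval -0.03 to 0.19, edgeR adjusted p = 0.278) and 0.03 against GFP (-0.09 to 0.16, adjusted p = 0.708). The highest library was GFP 2 and the lowest WT 3, so the spread within groups spanned that between them. ND6 is the only one of the 10 encoded on the opposite strand, and in human cells its message is known to lack a poly(A) tail. ND6 had 566, 553, 524 and 508 CPM in H1.4 CFT, 530.0, 593, 506 and 539 CPM in WT H1.4 and 585, 520.2 and 524 CPM in GFP. Its log2 fold changes of -0.01 against both WT H1.4 (95% interval -0.12 to 0.10, adjusted p = 0.887) and GFP (-0.13 to 0.10, adjusted p = 0.879) changed sign under other filters or without single libraries.

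ND5 and ND6 went together within groups. Over the 11 libraries, with group means taken out, the correlation of their log2 levels was 0.96, the highest among the 45 pairs of the 10 genes, whose median was 0.61 and whose lowest value was -0.56 for ND6 and COX1. These are descriptions over libraries that share their scaling. ND6 counts per 100 ND5 counts were 26.7 ± 0.127 in GFP (n = 3), 27.4 ± 0.477 in WT H1.4 (n = 4) and 25.8 ± 0.543 in H1.4 CFT (n = 4). ND5 and ND6 are neighbours on opposite strands and the strand setting of the counting is not given in the sources used here, so reads of ND6 and reads antisense to it cannot be told apart.

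Of the cytochrome c oxidase genes only COX2 passed, and only against WT H1.4. COX2 carries the copper centre that receives electrons from cytochrome c. It had 2359, 2372, 2469.5 and 2488 CPM in H1.4 CFT, 2299, 2405, 1934 and 2129 CPM in WT H1.4 and 2163, 2402 and 2311 CPM in GFP. WT 2 lay above CFT 1 and CFT 2, and WT 3 was the lowest library. The log2 fold change was 0.14 against WT H1.4 (SE 0.055, edgeR adjusted p = 0.0481) and 0.08 against GFP (SE 0.060, adjusted p = 0.342). The call held in 9 of 24 alternatives. The adjusted p was 0.198 without WT 3 (log2 fold change 0.09), 0.126 without WT 4, 0.0617 without GFP 3, 0.0669 without GFP 4, and 0.0513, 0.0553, 0.104 and 0.11 without CFT 1, 2, 3 and 4. It was 0.0623 with the replicate number as a block and 0.0504 with DESeq2, and in replicates 1 and 2 alone the log2 fold change was 0.00667 (adjusted p = 0.897).

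COX1 holds the haem and copper site where oxygen is reduced, and COX3 is the third core subunit. COX1 had 10554, 10368, 10822 and 11051 CPM in H1.4 CFT, 9802, 10116, 9921 and 10280.5 CPM in WT H1.4 and 9594, 10909.7 and 10804 CPM in GFP. Its H1.4 CFT libraries were above all WT H1.4 libraries by a narrow margin, and GFP 2 was below all others. Its log2 fold change was 0.09 against WT H1.4 (SE 0.044, edgeR adjusted p = 0.106) and 0.04 against GFP (SE 0.048, adjusted p = 0.612). COX3 had 3699, 3598, 3810.1 and 3841 CPM in H1.4 CFT, 3869, 3919, 3169 and 3368 CPM in WT H1.4 and 3459, 3718 and 3618 CPM in GFP. WT 1 and WT 2 were the highest of the 11 COX3 values and WT 3 and WT 4 the lowest. COX3 had log2 fold changes of 0.06 (95% interval -0.06 to 0.18, adjusted p = 0.432) and 0.05 (-0.08 to 0.18, adjusted p = 0.549). COX2 and COX3 residuals had a correlation of 0.96 over the 11 libraries, whereas for COX1 with COX2 it was 0.44.

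**Figure D3:**
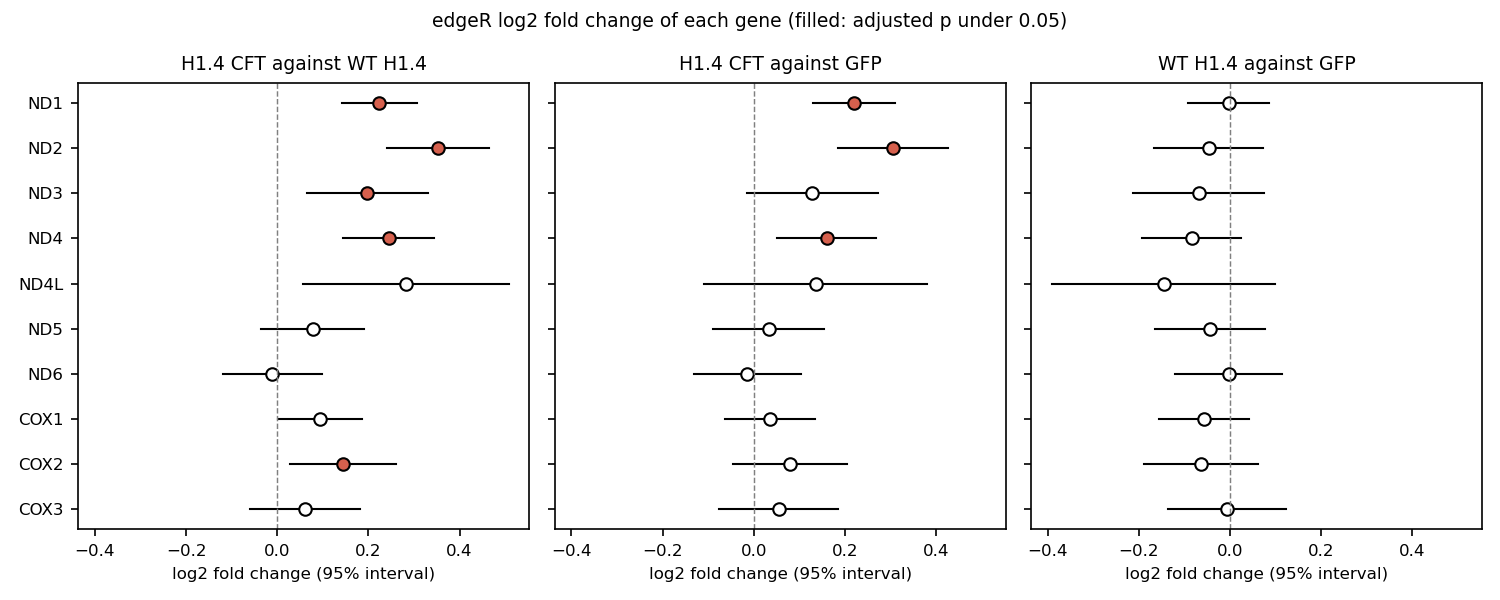
The log2 fold change of each of the 10 genes in the 3 comparisons, with bars that span the 95% interval of the edgeR fit. ND2 lies farthest from 0 in both comparisons of H1.4 CFT, and all 10 WT H1.4 against GFP intervals include 0.

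None of the 10 genes passed in WT H1.4 against GFP. The counts were 0 by edgeR's quasi-likelihood test, DESeq2 and limma-voom alike, with 0 at an unadjusted p under 0.05 in edgeR, where 0.434% of all genes tested were called higher and 0.509% lower. All 10 log2 fold changes were below 0 in this fit, from -0.15 for ND4L (SE 0.11) to -0.003 for ND6 (SE 0.056), with a median of -0.05 beside -0.001 for all genes. Those of ND1, ND5, ND6 and COX3 changed sign when single libraries were left out. WT 3 was the lowest WT H1.4 library for 9 of the 10 genes. The coefficient of variation over WT H1.4 libraries ran from 2.11% for COX1 to 15.3% for ND4L, that over H1.4 CFT from 1.87% for ND4 to 4.94% for ND6, and that over GFP from 1.82% for ND4 to 8.35% for ND4L.

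In the comparison of H1.4 CFT with WT H1.4, the differences depended on the number pair of the libraries. A fit with group and number pair, made after the data were seen, gave a difference between groups within replicates 1 and 2 and within replicates 3 and 4, with 5 residual degrees of freedom. Its p-values measure only the spread between libraries of the same group and number pair, which was small. Whether such libraries came from separate cultures is not stated. GFP 2 was the lone GFP library of the first pair, so every value against GFP in that pair rests on it and on the assumption that it varies like the libraries of the other groups. For H1.4 CFT relative to WT H1.4, 4 genes rose and 1 fell in replicates 1 and 2 (11.5% and 15.2% of all genes). In replicates 3 and 4, 8 rose and 0 fell (20.3% of all genes higher). The difference between the pairs itself passed for 6 of the 10 genes, ND1, ND2, ND3, ND4, COX2 and COX3, beside 10.2% of all genes. ND2 had log2 fold changes of 0.21 in the first pair and 0.51 in the second (difference 0.30, SE 0.042, edgeR adjusted p = 1.47e-07). COX3 had -0.09 and 0.23, so that it fell in the first pair (adjusted p = 0.00781) and rose in the second (adjusted p = 2.02e-10).

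In WT H1.4 against GFP, replicates 1 and 2 compare WT 1 and WT 2 with GFP 2 alone. There 1 gene, COX3, passed, with a log2 fold change of 0.17 (edgeR adjusted p = 0.00211, with 0.636% of all genes higher). In replicates 3 and 4, 6 genes fell (3.91% of all genes lower), led on the log2 scale by ND3 at -0.23 and COX2 at -0.21. The difference between pairs passed for 5 genes (1.47% of all genes), ND2, ND3, COX1, COX2 and COX3, and here the number pair and the single library GFP 2 cannot be told apart. For H1.4 CFT against GFP it passed for 0 of 10 (1 at an unadjusted p under 0.05, beside 4.18% of all genes called), a count from edgeR alone since no other tool was run on it. There 5 genes passed as higher in CFT 1 and CFT 2 than in GFP 2 (7.34% of all genes higher), and 3 rose in replicates 3 and 4 (17.4%). ND1 gave 0.23 in both pairs and ND2 gave 0.27 and 0.34. Whether a batch, the cultures or the preparation lies behind the number pairs was not tested.

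**Figure D4:**
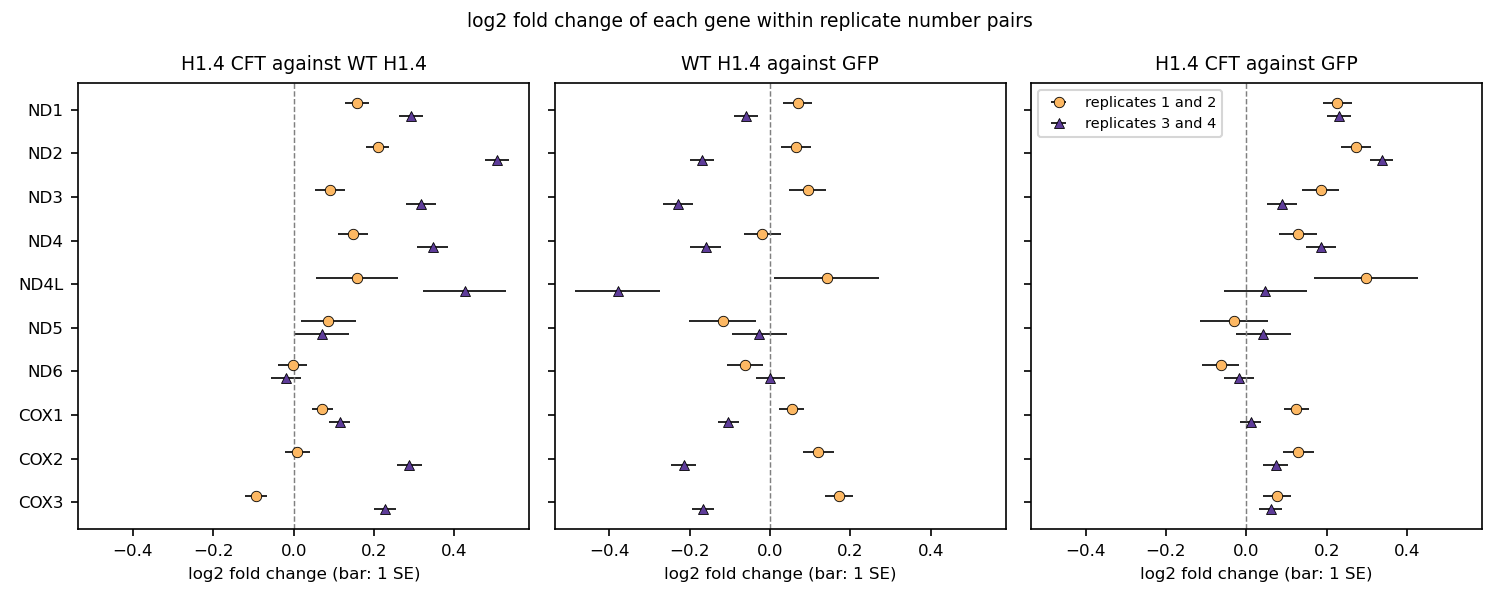
The log2 fold change of each gene within replicates 1 and 2 (circles) and within replicates 3 and 4 (triangles) in the 3 comparisons, with bars of 1 SE. In WT H1.4 against GFP, ND2, ND3, COX1, COX2 and COX3 are above 0 in the first pair and below 0 in the second, while ND1 and ND2 are above 0 in both pairs of H1.4 CFT against GFP.

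To ask whether the 10 genes differed from each other, counts were scaled to the sum of the 13 mitochondrial protein genes in each library. ND2 alone then passed in H1.4 CFT relative to WT H1.4 (6.74% of all genes were called higher on this scale) and alone in H1.4 CFT against GFP (6.5%). Its share of the mitochondrial protein counts was 5.96%, 6.16%, 6.16% and 6.14% in H1.4 CFT 1 to 4, 5.48%, 5.45%, 5.13% and 4.88% in WT H1.4 1 to 4 and 5.45%, 4.98% and 5.36% in GFP 2 to 4. The H1.4 CFT libraries were all above the others. The log2 fold change on this relative scale was 0.22 against WT H1.4 (SE 0.057, edgeR adjusted p = 0.00387) and 0.21 against GFP (SE 0.062, adjusted p = 0.0126). The second call was lost without GFP 3 (0.18, adjusted p = 0.085) and with the ND genes as the scale (0.15, adjusted p = 0.0778). This scale moved the median of all genes to -0.12 and -0.08. In WT H1.4 against GFP 0 of the 10 genes passed on it, with 0 at an unadjusted p under 0.05 and 0.347% of all genes called.

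The other genes did not pass on the relative scale. ND6, ND5, COX1 and COX3 had values of -0.14, -0.05, -0.04 and -0.07 against WT H1.4, with adjusted p of 0.0851, 0.562, 0.603 and 0.362 in edgeR. ND1, ND3, ND4, ND4L and COX2 had values of 0.09, 0.07, 0.11, 0.15 and 0.01, with adjusted p of 0.176, 0.382, 0.107, 0.0887 and 0.867. The unadjusted p was under 0.05 for ND4 (0.0492), ND4L (0.039) and ND6 (0.037). In H1.4 CFT the shares of ND1 and ND4 were all above those of WT H1.4, and those of ND6 all below. As a group, ND genes had 51.5 ± 1.48 counts per 100 COX counts in H1.4 CFT (n = 4), 47.7 ± 1.78 in WT H1.4 (n = 4) and 47.9 ± 3.96 in GFP (n = 3). GFP 2, at 52.4, was among the H1.4 CFT values of 49.9 to 53.1, as was WT 2 at 50.2. The log2 ratio of ND to COX differed by 0.11 between H1.4 CFT neurons and WT H1.4 neurons (exact two-sided permutation p = 0.0571, adjusted p = 0.114) and by 0.11 between H1.4 CFT and GFP (exact p = 0.171, adjusted p = 0.24). Between WT H1.4 and GFP the difference was -0.004 (exact p = 0.914).

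The mitochondrial genome encodes 3 further proteins, cytochrome b of complex III and a pair of ATP synthase subunits. CYTB rose in H1.4 CFT relative to WT H1.4 from 3018 ± 135 to 3303 ± 35.9 CPM (n = 4 each, log2 fold change 0.13, SE 0.039, edgeR adjusted p = 0.0134), a call lost without WT 3 (adjusted p = 0.0655). ATP6 rose from 1715 ± 193 to 1938 ± 74.3 CPM (log2 fold change 0.18, adjusted p = 0.0362). That call held in 14 of 24 alternatives, and not in the fits without GFP 2, 3 or 4 (adjusted p of 0.0504, 0.0509 and 0.0501), WT 3 (0.115), WT 4 (0.108), CFT 3 (0.0835) or CFT 4 (0.101). In replicates 1 and 2 alone its log2 fold change was -0.00175 (adjusted p = 0.974). Against GFP neither passed in edgeR (log2 fold change 0.10 and adjusted p = 0.0701 for CYTB, 0.18 and 0.0593 for ATP6), though all H1.4 CFT libraries were above all GFP libraries for both. CYTB was called in 6 and ATP6 in 9 of 24 alternatives, among them DESeq2 for both (adjusted p = 0.0331 and 0.0467). ATP8 had 21 to 46 counts per library and did not pass, and its reading frame overlaps that of ATP6. The fold changes of CYTB and ATP6 lay within the range of the 10 genes.

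Nuclear genes of the same complexes and of mitochondrial gene expression are given as lists. The shares to read their counts against are those of all genes tested, 16.7% higher and 19.2% lower against WT H1.4 and 13.3% higher and 16.2% lower against GFP. Of 37 nuclear complex I subunits tested, 10 rose (27%), 0 fell and 27 did not pass in H1.4 CFT relative to WT H1.4 (median log2 fold change 0.08). Against GFP 3 rose (8.11%), 2 fell (5.41%) and 32 did not pass (median -0.010), both shares below those of all genes. Ndufs7, an iron-sulphur subunit close to the ubiquinone site, was 43.1 ± 2.94 CPM in H1.4 CFT, 34.5 ± 1.41 CPM in WT H1.4 (n = 4 each) and 34.9 ± 4.04 CPM in GFP (n = 3). It rose in both comparisons (log2 fold changes 0.33 and 0.31, edgeR adjusted p = 0.00127 and 0.00535). Ndufa13, an accessory subunit also known as GRIM-19, rose by 0.27 (adjusted p = 0.00234) and 0.24 (adjusted p = 0.0124, and 0.0972 without GFP 2). Ndufa8, another accessory subunit, rose against WT H1.4 (log2 fold change 0.21, adjusted p = 0.0029, but 0.13 with adjusted p = 0.081 in replicates 1 and 2 alone) and gave 0.06 against GFP (adjusted p = 0.455). Ndufs1, which carries iron-sulphur clusters, was the only gene of this list called in WT H1.4 against GFP, where it fell (log2 fold change -0.24, adjusted p = 0.0339). It was named for that after its values were seen.

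Of 13 nuclear complex IV subunits, 2 rose, 2 fell and 9 did not pass against WT H1.4 (15.4% each way, near the shares of all genes, median 0.09), and 0 rose and 1 fell (7.69%) against GFP (median -0.014). Cox7a2l, known for its part in joining complexes III and IV into supercomplexes, fell in both comparisons (69.9 ± 2.85 CPM in H1.4 CFT, 88.8 ± 1.52 CPM in WT H1.4 and 90.6 ± 7.84 CPM in GFP, log2 fold changes -0.35 and -0.37, edgeR adjusted p = 4.14e-05 and 5.6e-05). Cox6b2, an isoform best known from testis, was low throughout and fell from 5.71 ± 1.03 CPM in WT H1.4 to 3.09 ± 0.829 CPM in H1.4 CFT (adjusted p = 0.00172). Cox7b rose from 57.1 ± 4.01 to 66.0 ± 4.10 CPM (log2 fold change 0.21, adjusted p = 0.0107), a call lost without WT 4 (adjusted p = 0.0533) and in replicates 1 and 2 alone (log2 fold change 0.09, adjusted p = 0.282).

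Among 15 complex I assembly factors 2 rose and 0 fell against WT H1.4 (median 0.07), and 2 rose and 1 fell against GFP (median 0.05). Their 13.3% higher in each comparison is no larger than the share of all genes. The former were Ndufaf5, an enzyme that modifies Ndufs7 during assembly (log2 fold change 0.25, edgeR adjusted p = 0.0151), and Tmem186 (0.22, adjusted p = 0.0421). Ndufaf5 also rose against GFP (log2 fold change 0.30, adjusted p = 0.0101), a call that held in 23 of 24 alternatives. Its call against WT H1.4 was lost without WT 3 (adjusted p = 0.0609), WT 4 (0.0564) or CFT 3 (0.0638), and its value in replicates 1 and 2 alone was 0.06 (adjusted p = 0.698). That of Tmem186 held in 12 of 24 alternatives, and not on omission of GFP 3 (0.0554), WT 1 (0.101), WT 2 (0.118), WT 3 (0.0762), CFT 2 (0.0721), CFT 3 (0.0666) or CFT 4 (0.116), nor in replicates 1 and 2 (0.0805) or 3 and 4 (0.19) alone. Among 18 complex IV assembly factors 5 rose (27.8%) and 0 fell against WT H1.4 (median 0.04), and 1 rose (5.56%) against GFP (median -0.008). Cox10 and Cox15, which make haem A, rose by 0.41 (adjusted p = 0.000764) and 0.18 (adjusted p = 0.0125, 0.0561 without WT 4 and 0.085 in replicates 1 and 2 alone), and Coa6, a copper-delivery factor, rose by 0.55 (adjusted p = 0.00232). In replicates 3 and 4 alone Coa6 gave 0.31 (adjusted p = 0.104). Against GFP these 3 gave 0.15, 0.10 and 0.20 with adjusted p of 0.221, 0.178 and 0.308.

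Of 19 genes for mitochondrial transcription and DNA maintenance, 7 rose (36.8%), 2 fell (10.5%) and 10 did not pass in H1.4 CFT relative to WT H1.4, with a median log2 fold change of 0.20, while 1 rose, 1 fell (5.26% each) and 17 did not pass against GFP (median 0.10). Tfam, which packages mitochondrial DNA and starts its transcription, was 45.0 ± 2.93 CPM in H1.4 CFT and 33.9 ± 3.42 CPM in WT H1.4 (n = 4 each, log2 fold change 0.41, SE 0.074, edgeR adjusted p = 0.000283). In GFP it was 39.0 ± 3.37 CPM (n = 3), and the H1.4 CFT difference of 0.21 did not pass (adjusted p = 0.059). Mgme1, a nuclease of mitochondrial DNA replication, rose against WT H1.4 (0.54, adjusted p = 0.0022, but 0.35 with adjusted p = 0.0907 in replicates 1 and 2 alone) and gave 0.21 against GFP (adjusted p = 0.25). Mterf2, of the mitochondrial termination factor family, fell in both comparisons (-0.41 and -0.51, adjusted p = 0.00353 and 0.00189).

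Of 24 genes for RNA processing and stability in mitochondria, 4 rose (16.7%, the share of all genes) and 2 fell (8.33%) against WT H1.4 (median 0.04), and 2 rose and 2 fell (8.33% each) against GFP (median 0.05). The FASTK family acts on mitochondrial messages. Its member Fastkd3 rose in both comparisons (0.35 and 0.34, edgeR adjusted p = 0.00138 and 0.00533, and 0.30 with adjusted p = 0.104 against GFP in replicates 1 and 2 alone), while Fastkd1 fell against WT H1.4 (-0.49, adjusted p = 0.00979) and gave -0.34 against GFP (adjusted p = 0.0938). Elac2, the nuclease that cuts the 3′ ends of transfer RNAs out of the precursor, rose against WT H1.4 (0.19, adjusted p = 0.0217), but not without WT 1 (adjusted p = 0.093), WT 3 (0.0574) or CFT 3 (0.0855), or in replicates 1 and 2 alone (0.19). Of 10 regulators of mitochondrial biogenesis 0 passed against WT H1.4 in edgeR, DESeq2 or limma-voom, with 0 at an unadjusted p under 0.05 (median 0.09). Against GFP only Ppargc1a, the coactivator PGC-1alpha, was called, named here after its values were seen, and it fell (log2 fold change -0.47, adjusted p = 0.00368).

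**Figure D5:**
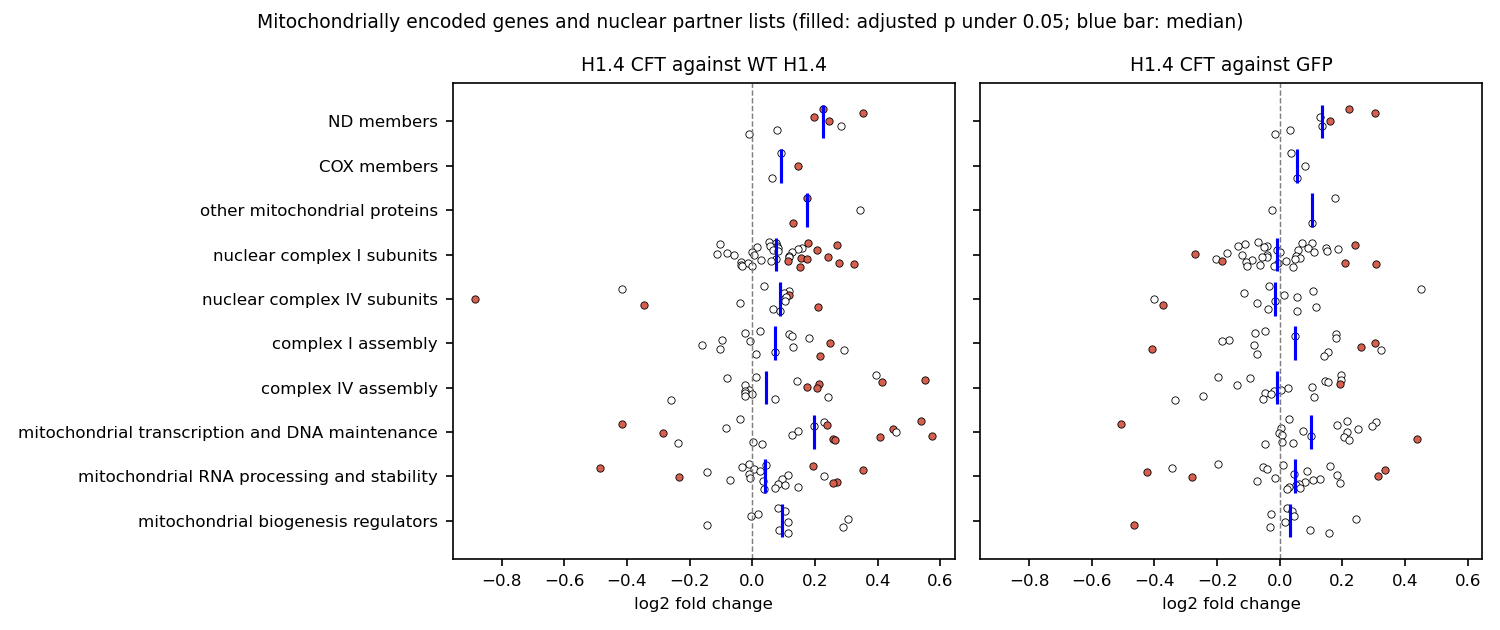
Each point is the log2 fold change of 1 gene in H1.4 CFT relative to WT H1.4 or against GFP, by list, filled where the adjusted p is under 0.05, with a blue bar at the list median. The ND genes and the transcription and DNA maintenance list have medians of 0.22 and 0.20 against WT H1.4, and points of the nuclear lists lie on both sides of 0.

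Markers of neurons and astrocytes also differed between groups, though not in all the same comparisons. In H1.4 CFT relative to WT H1.4, 7 of 11 neuronal markers fell (63.6%, beside 19.2% of all genes), 2 rose and 2 did not pass, and against GFP 8 fell (72.7%, beside 16.2%) and 0 rose. Their summed level was 4030 to 4776 CPM over H1.4 CFT libraries, 5823 to 5972 CPM over WT H1.4 and 5813 to 5947 CPM over GFP. Stmn2, Map2 and Tubb3, cytoskeletal genes of neurons with the smallest p of the list, had log2 fold changes of -0.51, -0.54 and -0.43 against WT H1.4. They were also the most abundant of the markers and weigh most in the sum. Their means were 1088, 904 and 1235 CPM in H1.4 CFT and 1552, 1318 and 1661 CPM in WT H1.4. Of 9 astrocyte markers 5 rose (55.6%, beside 16.7% of all genes) and 0 fell against WT H1.4, among them Gfap (0.87) and Gja1 (0.61), and 1 rose against GFP (11.1%, beside 13.3%). In WT H1.4 against GFP 0 astrocyte markers rose and 4 fell (44.4%, beside 0.509% of all genes lower). Of the neuronal markers 0 rose and 2 fell there (18.2%). The summed astrocyte level was 1939 to 2007 CPM in H1.4 CFT and 1897 to 2033 CPM in GFP, which overlap, and 1504 to 1614 CPM in WT H1.4. The part of either cell type in the levels of the 10 genes was not tested.

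The other cell types gave lower levels. Of 9 oligodendrocyte lineage markers tested 0 passed against WT H1.4 by edgeR (2 at an unadjusted p under 0.05, and 1 called each by DESeq2 and limma-voom). Against GFP 1 rose in H1.4 CFT (11.1%, beside 13.3% of all genes) and 1 in WT H1.4 (11.1%, beside 0.434%). Their summed level overlapped in all groups (476 to 552 CPM in H1.4 CFT, 477 to 573 CPM in WT H1.4 and 473 to 583 CPM in GFP). Of 10 endothelial and mural markers 7 were tested, and 3 rose (42.9%, beside 16.7% of all genes) and 0 fell against WT H1.4. Against GFP 1 rose (14.3%, beside 13.3%) and 0 fell, and in WT H1.4 against GFP 0 rose and 2 fell (28.6%, beside 0.509%). The sum was 49.5 to 56.8 CPM in H1.4 CFT, 34.6 to 43.3 CPM in WT H1.4 and 52.9 to 58.4 CPM in GFP. Tek, Col1a2 and Col1a1 had the smallest p of this list, with log2 fold changes of 1.71, 0.99 and 0.60 against WT H1.4. Their edgeR adjusted p were 1.62e-05, 2.31e-05 and 0.0122, and Tek was also called against GFP. Tek was 3.51 ± 0.739 CPM in H1.4 CFT and 1.07 ± 0.190 CPM in WT H1.4. In their highest library Tek, Pecam1 and Flt1 had 4.61, 2.38 and 1.80 CPM, while Cdh5 and Cldn5 did not exceed 0.496 CPM in any library. Only 2 of 9 microglia markers were high enough to test, of which Csf1r rose and P2ry12 fell against WT H1.4. The microglia sum was 8.28 to 12.1 CPM in H1.4 CFT, 10.6 to 14.2 CPM in WT H1.4 and 11.5 to 13.1 CPM in GFP, and the defining markers Cx3cr1, C1qa, C1qb, C1qc, Itgam and Tmem119 were at most 0.839 CPM in any library. The part of these cells was not tested.

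The genes outside the mitochondrial genome with the pattern most like the mean of the 10 genes were Ncoa4, Lgals3bp, Gapdhs, Prim1 and Xrcc2. Their levels had correlations of 0.93, 0.93, 0.92, 0.92 and 0.91 with that mean over the 11 libraries, the highest among 11329 genes with at least 5 CPM on average. Ncoa4 stood at 131 CPM on average in H1.4 CFT, 120 CPM in WT H1.4 and 123 CPM in GFP. The 10 genes together had this order of groups too, which a choice by correlation over the same libraries favours. Xrcc2 had another order, at 14.3 CPM in H1.4 CFT, 9.95 CPM in WT H1.4 and 9.57 CPM in GFP. The correlations describe libraries that share depth and scaling.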

How the data were processed

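The files hold raw counts per gene symbol for 11 libraries. STAR 2.7.2b, HTSeq 0.10.0 and the build mRatBN7.2 are named in the submitters' processing notes, and the deposited counts were not normalized by the authors. Neither the strand setting nor the annotation release is given in the sources used here. Of 42177 entries per file, 5 are summaries of the counter and were left out of library sizes and tests (45.2% to 46.0% of reads fell in no feature and 0.396% to 0.430% were ambiguous).

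Genes were kept with filterByExpr by group (minimum count 10, minimum total 15). All libraries were fitted together in R 4.3.3 with edgeR 4.0.16 (TMM scaling, a term for group, robust quasi-likelihood test, 8 residual degrees of freedom), with Benjamini-Hochberg adjustment over the 17294 genes tested and a threshold of 0.05. The biological coefficient of variation was 7.02%. Rose, fell, passed and called refer to that threshold. Library shares and ratios had exact permutation tests, two-sided and adjusted over 6 tests. The procedure was run on simulated data with independent libraries and no number-pair effect, so its error rate with such pairs was not measured. Alternatives were RLE scaling, library sizes without mitochondrial genes, other filters, DESeq2 1.42.0, limma-voom (limma 3.58.1), a non-robust spread, the replicate block, number pairs, only the groups compared and the omission of each library. The fits of replicates 1 and 2 alone, of group by number pair, and without WT 3 beside a pair term were added after the data were seen.

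The members and lists were chosen with earlier results of these data known. Named genes are the 10 genes, CYTB, ATP6 and ATP8, up to 3 nuclear genes per list with the smallest p among those called in H1.4 CFT relative to WT H1.4, and the 5 genes of most similar pattern. Marker lists for neurons, astrocytes, oligodendrocytes, microglia, and endothelial and mural cells were used to describe the cultures.

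Equal replicate numbers in the labels might mark shared cultures, which no label states. Residuals of equal numbers, in order of number, had correlations of 0.149, 0.174, 0.192 and 0.142 between H1.4 CFT neurons and WT H1.4 neurons, and of 0.255, 0.124 and 0.163 between H1.4 CFT and GFP. All were above 0.1. The main fit had a term for group only, and the permutation tests used no pairs. Their p-values thus treat the libraries of a group as independent, and the replicate number entered as a block only among the alternatives. Unequal numbers of the same number pair (1 with 2, 3 with 4) correlated as much, from 0.147 to 0.189 and from 0.123 to 0.263, and those of different number pairs were below 0, so the values set the number pairs apart and not single numbers. Between WT H1.4 and GFP the correlations of equal numbers were 0.206, 0.113 and 0.0927.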

Additional observations from a re-analysis of the deposited data

Results flagged for a closer look

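Of the 10 genes, 6 had a difference between H1.4 CFT neurons and WT H1.4 neurons that was itself different in replicates 3 and 4 and in replicates 1 and 2 (edgeR adjusted p under 0.05 for the difference). That test measures only the spread between libraries of the same group and number pair. The log2 fold change in replicates 3 and 4 was larger by 0.13 for ND1, 0.30 for ND2, 0.23 for ND3, 0.20 for ND4, 0.28 for COX2 and 0.32 for COX3. For WT H1.4 against GFP the same test passed for 5 genes, with the value in replicates 3 and 4 below that in replicates 1 and 2, by a difference of -0.23 for ND2, -0.32 for ND3, -0.16 for COX1, -0.33 for COX2 and -0.34 for COX3. The first pair holds a single GFP library, GFP 2, in that comparison, so the pair and that library cannot be told apart.

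Single libraries stood apart from their group in 2 of 44 checks, where chance gives about 1 in 20. ND2 took 5.96% of the mitochondrial protein gene counts in CFT 1 and 6.14% to 6.16% in the other H1.4 CFT libraries. ND4 took 6.53% in WT 2 and 6.08% to 6.11% in the other WT H1.4 libraries.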

How the results depend on the processing

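ND1, ND2 and ND4 were called in H1.4 CFT relative to WT H1.4 in all 24 alternatives, with log2 fold changes of 0.16 to 0.29, 0.21 to 0.50 and 0.15 to 0.34. ND1 and ND2 were also called against GFP in all 24 (0.20 to 0.24 and 0.27 to 0.33). The number of the 10 genes called in H1.4 CFT relative to WT H1.4 was 3 (without WT 4) to 6 when 1 library was left out. Over the same fits 5031 to 6444 genes were called in all. The number was 8 in replicates 3 and 4 alone, where the fit of group by number pair called 3506 of all genes higher and 4056 lower. Against GFP it was 6 in replicates 1 and 2 alone, where 3331 genes were called in all. In WT H1.4 against GFP it was 6 in replicates 3 and 4 alone, where 1596 genes were called in all. With GFP 2 as the lone control, in replicates 1 and 2 alone, COX3 had a log2 fold change of 0.17. With the replicate number as a block, COX2 lost its call against WT H1.4 (adjusted p = 0.0623), as did mt-Rnr2, and no other call of the 10 genes changed.

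For WT H1.4 against GFP, 163 genes were called in all. The number was 462 with no low-count filter, 268 with DESeq2, 248 with the replicate block, 404 with the number pair as a term, 349 with only the groups compared, 1596 in replicates 3 and 4 alone, 247 without WT 3 beside a pair term, and 44 (without GFP 3) to 306 (without GFP 2) when 1 library was left out. On the scale of the mitochondrial sum the 60 genes became 166 with the pair as a term, 28 when scaled to COX genes, 101 when scaled to ND genes, and 1 to 210 without 1 library. On that scale 2 of the 10 genes were called in H1.4 CFT relative to WT H1.4 with the pair as a term or when scaled to the ND genes. Without 1 library it was 1 to 2, beside 5476 to 6805 genes called in all. Against GFP 2 of the 10 genes were called when scaled to the COX genes. Without 1 library it was 0 (without GFP 3) to 1, beside 3708 to 5197 genes called in all.

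The difference in the share of gene counts was 0.537 percentage points against WT H1.4 and 0.309 against GFP in replicates 3 and 4 alone, and 0.224 to 0.306 against GFP without 1 library. Those designs cannot reach a p under the threshold. The ND to COX log2 ratio differed by 0.13 between H1.4 CFT neurons and WT H1.4 neurons without ND6 (exact permutation p = 0.0286), and by 0.10 to 0.14 without 1 library. Between WT H1.4 and GFP it was 0.0265 in replicates 3 and 4 alone and -0.0511 to 0.0617 without 1 library.

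Some values changed sign. Of the genes called in H1.4 CFT relative to WT H1.4 with all libraries in the fit, ATP6 and mt-Rnr2 did so in replicates 1 and 2, and COX3, which did not pass in that fit, passed there with the opposite sign (adjusted p of 0.00751 against WT H1.4, and 0.00399 in WT H1.4 against GFP, where GFP 2 is the lone control). The values in WT H1.4 against GFP were ND1 and ND6 with no filter (0.000901 and 0.000858), ND6 in replicates 3 and 4 (0.00383), and, in replicates 1 and 2, ND1 (0.0649), ND2 (0.0603), ND3 (0.0904), ND4L (0.137), COX1 (0.0501), COX2 (0.117) and COX3 (0.167). Without WT 3 beside a pair term they were ND1 (0.0313), COX2 (0.000699) and COX3 (0.0468). Without 1 library the ranges were -0.0228 to 0.0216 for ND1, -0.0935 to 0.0170 for ND5, -0.0477 to 0.0536 for ND6 and -0.0521 to 0.0485 for COX3. In H1.4 CFT relative to WT H1.4, ND6 became 0.00765 and mt-Rnr1 0.00298 with the stricter filter, and COX3 (-0.0961), ATP6 (-0.00175), mt-Rnr1 (0.00485) and mt-Rnr2 (0.0237) changed sign in replicates 1 and 2. Without 1 library ND6 ran from -0.0448 to 0.0318 and mt-Rnr1 from -0.0583 to 0.0207. In H1.4 CFT against GFP, ND6 became 0.00255 with the stricter filter, ATP8 became 0.00425 with the pair as a term, 0.115 in replicates 3 and 4 and 0.0196 without WT 3 beside that term, and ND5 (-0.0370) and mt-Rnr2 (0.0806) changed sign in replicates 1 and 2. Without 1 library ND5 ran from -0.00273 to 0.0926, ND6 from -0.0480 to 0.0405, COX1 from -0.0231 to 0.0652 and ATP8 from -0.204 to 0.0965. The cause was not tested. Each of the 10 genes had at least 2342 counts in every library, so the spread between libraries, and not depth, sets the precision.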

Other observations

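The RNA genes of the mitochondrial genome given here were looked up after the data were seen. The 12S ribosomal RNA gene mt-Rnr1 was 262 ± 17.6 CPM in H1.4 CFT, 265 ± 9.78 CPM in WT H1.4 (n = 4 each) and 244 ± 7.01 CPM in GFP (n = 3), and did not pass (edgeR adjusted p = 0.819 against WT H1.4 and 0.142 against GFP). The 16S gene mt-Rnr2 was 396 ± 32.2, 439 ± 31.3 and 407 ± 10.4 CPM in the same order. It fell against WT H1.4 (log2 fold change -0.15, adjusted p = 0.043), while ND1, beside it in the genome, rose. That call held in 11 of 24 alternatives, and not without WT 3 (adjusted p = 0.13), WT 4 (0.132), GFP 3 (0.0513), GFP 4 (0.0531), CFT 2 (0.0567), CFT 3 (0.115) or CFT 4 (0.143), nor with the replicate block (0.0542). Ribosomal RNA has only short tails, so these levels describe what was left after selection for poly(A). Trns1, a transfer RNA gene next to COX1 on the other strand, followed COX1 closely, at 5.15 ± 0.0832 counts per 100 COX1 counts in GFP, 5.13 ± 0.202 in WT H1.4 and 5.16 ± 0.0842 in H1.4 CFT.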
